A study of Mus musculus with 9 samples.

Results

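The acute phase proteins described here are 10 liver genes: Saa1, Saa2, Saa3 and Saa4 (serum amyloid A), Orm1 and Orm2 (orosomucoid, or alpha-1-acid glycoprotein), Hp (haptoglobin), Hpx (hemopexin), Lcn2 (lipocalin 2) and Crp (C-reactive protein). Every non-control probe that the scanner files annotate with 1 of these names was taken, which gave 12 probes of 56605 on the array, and 10 gene names of 37074. RNA from mouse liver was hybridised to 9 one-colour Agilent arrays, with 3 arrays in each of 3 groups of male C57BL/6N mice labelled as 12 months old. By the study's text that time was counted from the injection of adult mice, so the animals may have been older than the label. AAV-V animals received an empty adeno-associated virus (AAV) vector and a regular diet, AAV-GP73 animals a vector carrying mouse GP73 and the same diet, and AAV-V HFD animals the empty vector and a high-fat diet. The vector was given into the vein and is described by the study as specific to hepatocytes, so that all 3 groups carry AAV and differ in its insert or in the food. Whether a sample is 1 mouse or a pool is not given in the sources used here, and p-values measure the spread between these samples only.

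Acute phase proteins are secreted by hepatocytes into the blood, and their transcripts are raised in infection, injury and inflammation. The textbook route runs from interleukin-6 through STAT3 and from interleukin-1 and TNF through NF-kB, with C/EBP factors acting on many of the same promoters. Serum amyloid A and C-reactive protein are the classical fast responders, although in mice serum amyloid A rises far more than C-reactive protein, and haptoglobin and hemopexin scavenge the haemoglobin and haem that damaged red cells release. In whole liver, fewer cells of a type and less RNA per cell cannot be told apart.

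Values are log2 signals after each array was shifted to the same upper quartile of the 2666 probes detected on all 9 arrays, where detected means that the scanner software marked the spot as well above its background; a step of 1 is a doubling. A probe was tested when every array of 1 group or more detected it. This held for 6591 probes and for 9 of the 12 member probes, 1 for each gene except Crp. The AAV-V arrays were dimmer: 10.2% to 10.7% of their spots were detected, against 16.0% to 18.4% in AAV-GP73 and 13.8% to 16.7% in AAV-V HFD. All AAV-V HFD arrays lay on slide 2 and all others on slide 1, so diet and slide cannot be told apart, and on slide 1 each group filled its own column. Golm1, the gene that encodes GP73, had 1 probe, which was detected on no array, so that the label AAV-GP73 was not checked by it. Of 12 hepatocyte markers, 10 were detected on all 9 arrays.

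The orosomucoid genes are near copies of one another, and their probes are shown because they decide which gene a signal can be given to. The Orm1 probe (mm9, chr4:63007395-63009038, plus strand, across a splice junction) is listed by its annotation for 2 curated transcripts, those of Orm1 and of Orm2. It also overlaps 1 of the 2 probes of their neighbour Orm3 (mm9, chr4:63018910-63020393) in 52 bases, of which 46 are identical. The 6 bases that differ are in capitals and are, counted from the 5′ end of the Orm1 probe, T28C, G35A, C38G, G40A, G46A and G55T.
Orm1: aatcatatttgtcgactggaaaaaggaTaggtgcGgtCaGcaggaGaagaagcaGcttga
Orm3: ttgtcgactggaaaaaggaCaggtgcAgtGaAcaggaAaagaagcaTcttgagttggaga
Orm2: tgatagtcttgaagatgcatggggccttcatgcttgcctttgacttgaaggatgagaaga
The Orm2 probe (mm9, chr4:63024979-63025038) overlaps neither, so values of the Orm1 probe may hold Orm2 transcript while the Orm2 probe is listed for Orm2 only. The Saa1 and Saa2 probes share no such overlap, but cross-hybridisation between these near copies was not tested.

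Promoters of 8 of the 10 genes were in the RefSeq table for GRCm38.p6, which held no entry for Orm1 or Hp. In the 250 bases before the annotated start, the C/EBP letters TTGCNNAA, read on both strands, were present in 7 of the 8 windows, all but that of Crp. The same letters were present in 9.56% of the 32851 promoter windows of that length in the table. The STAT3 letters TTCNNNGAA (7.02% of all windows) and an NF-kB motif (1.41% of all windows), on both strands, were present in 0 of the 8. These are matches of letters, not measured binding. The NF-kB motif was searched as 1 narrow pattern with most of its letters fixed, and looser forms of it were not searched. With matches in only 7.02% and 1.41% of all windows, 0 of 8 does not show that these promoters lack STAT3 or NF-kB sites. The C/EBP letters were also present for Saa3 and Saa4, whose correlations with Saa1, given further on, did not pass. They were present for Orm3 too, which is not a member. The 4 windows below belong to genes whose transcripts moved together from array to array, as described further on, with the C/EBP letters in capitals.
Saa1 (chr7:46742981-46743230, minus strand): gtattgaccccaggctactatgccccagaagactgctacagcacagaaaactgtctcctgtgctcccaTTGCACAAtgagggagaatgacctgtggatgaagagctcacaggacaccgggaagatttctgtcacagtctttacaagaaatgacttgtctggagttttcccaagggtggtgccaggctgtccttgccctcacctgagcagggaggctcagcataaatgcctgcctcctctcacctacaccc
Saa2 (chr7:46751583-46751832, plus strand): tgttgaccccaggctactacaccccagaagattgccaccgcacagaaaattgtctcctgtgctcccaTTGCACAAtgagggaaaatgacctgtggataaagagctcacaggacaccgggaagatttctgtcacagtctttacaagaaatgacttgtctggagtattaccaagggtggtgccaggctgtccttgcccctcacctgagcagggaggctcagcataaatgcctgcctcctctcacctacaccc
Orm2 (chr4:63362199-63362448, plus strand): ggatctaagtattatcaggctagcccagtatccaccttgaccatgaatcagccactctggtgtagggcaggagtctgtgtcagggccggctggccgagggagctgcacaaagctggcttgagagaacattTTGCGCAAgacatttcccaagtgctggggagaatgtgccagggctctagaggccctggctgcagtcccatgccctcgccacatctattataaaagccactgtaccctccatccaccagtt
Lcn2 (chr2:32387740-32387989, minus strand): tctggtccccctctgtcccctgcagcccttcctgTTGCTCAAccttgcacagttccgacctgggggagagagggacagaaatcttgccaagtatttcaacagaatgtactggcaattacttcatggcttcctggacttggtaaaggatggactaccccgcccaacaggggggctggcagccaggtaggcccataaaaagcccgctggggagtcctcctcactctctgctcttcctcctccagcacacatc
The Saa1 and Saa2 windows were identical in 238 of 251 aligned positions (94.8%). These 2 genes are neighbours transcribed in opposite directions. The windows of Saa1 and Saa3 were identical in 48.9% of aligned positions, and those of Saa1 and Saa4 in 42.6%.

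**Figure D1:**
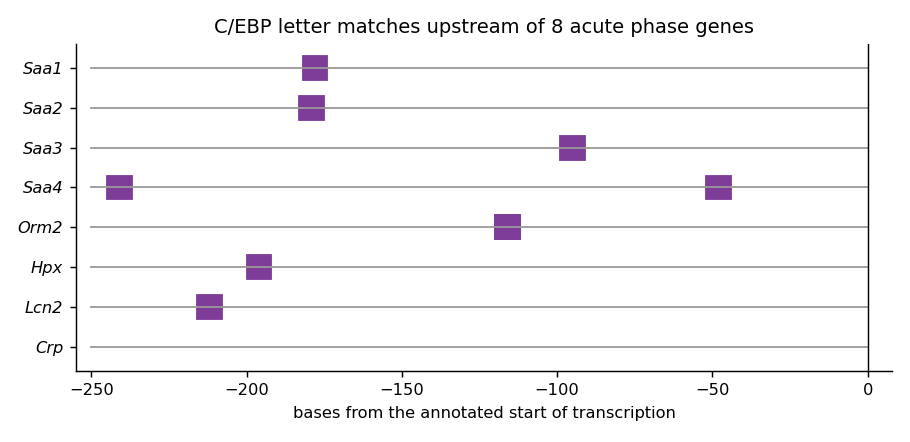
Each horizontal line is the 250 bases before the annotated start of transcription of 1 gene, at 0 on the x axis (bases), and each box is a match to the C/EBP letters on either strand. Of the 8 genes drawn, 7 hold a match, at different distances from the start, and Crp holds none.

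A difference was called where it was 2-fold or more with a limma adjusted p under 0.05. By this rule 1 of the 9 members tested was called in AAV-GP73 against AAV-V (Hp, higher), where 51.8% of all probes tested were called in either direction and 33.9% were called higher and 17.9% lower. In AAV-V HFD against AAV-V, 3 of 9 were called higher (Hp, Saa3 and Saa4) beside 42.0% of all probes in either direction, 25.0% higher and 16.9% lower. The shares of members called thus lay below or near those of all probes. Arrays of the 2 groups did not overlap for 2 members in AAV-GP73 against AAV-V, Hp and Saa3, where 45.7% of all probes were higher with no overlap, and for 2 in AAV-V HFD against AAV-V, Saa3 and Saa4, beside 34.6%. The median difference over the 9 members was 1.29 in AAV-GP73 and 1.49 for AAV-V HFD, beside 0.64 and 0.41 over all probes tested. In each, 8 of 9 were above 0, and the AAV-V arrays are shared by both comparisons. Saa1, Saa2, Saa3, Saa4 and Lcn2 were not detected on every AAV-V array, and Saa3 and Saa4 on none. These members were therefore tested only through the other groups, which bears on the direction of the calls, non-overlaps and medians.

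How many members were called depended on how the dimmer AAV-V arrays were scaled. With arrays scaled on spike-in controls, 8 members were called higher in AAV-GP73 and 6 for AAV-V HFD, and 98.2% and 98.3% of all calls were then toward higher, against 65.4% and 59.6% here. With the 75th percentile of all probes the members called were 4 and 5, and 91.3% and 95.2% of all calls were toward higher. After normexp background correction the members called were 2 and 1, and 17.0% and 8.32% of all calls were toward higher. The median of all probes in AAV-GP73 against AAV-V was 2.31, 1.63 and -0.58 under these 3 settings.

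Saa1 and Saa2 encode the inducible serum amyloid A proteins that travel on high-density lipoprotein in the blood. The Saa2 probe read 7.94, 3.63 and 3.98 on the AAV-V arrays of replicates 1, 2 and 3. It read 11.85, 4.70 and 6.04 on the AAV-GP73 arrays and 6.10, 7.24 and 9.49 on the AAV-V HFD arrays. A single array of AAV-V and a single array of AAV-GP73, replicate 1 of each, stood far above the other two of their group, and all 3 groups overlapped. The highest Saa2 array exceeded the lowest by 19.8-fold within AAV-V, 142-fold within AAV-GP73 and 10.5-fold within AAV-V HFD. In AAV-V the probe was detected only on replicate 1, so the first of these folds has an undetected array as its denominator.

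Saa1 followed the same order of arrays. It read 7.45, 3.42 and 4.03 in AAV-V, 10.80, 4.03 and 5.21 in AAV-GP73, and 5.55, 6.34 and 8.43 in AAV-V HFD, replicates 1 to 3 in each case. The range within a group was 16.4-fold in AAV-V, where the lowest array, replicate 2, was not detected, 109-fold in AAV-GP73 and 7.37-fold in AAV-V HFD. The 9 arrays had the same rank order for Saa1 as for Saa2, from AAV-GP73 replicate 1 at the top through AAV-V HFD replicate 3 and AAV-V replicate 1 to AAV-V replicate 2 at the bottom.

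With this spread, no difference between group means passed the test for either gene. Saa2 was 2.35 higher on the log2 scale in AAV-GP73 than in AAV-V (95% interval -1.20 to 5.90, limma adjusted p = 0.222) and 2.43 higher in AAV-V HFD than in AAV-V (-1.12 to 5.98, limma adjusted p = 0.223). Saa1 was 1.72 higher in AAV-GP73 (-1.59 to 5.02, limma adjusted p = 0.336) and 1.81 higher in AAV-V HFD (-1.495 to 5.11, limma adjusted p = 0.329). Without replicate 1 of AAV-GP73 the Saa1 difference from AAV-V was -0.34 and the Saa2 difference 0.19. The intervals leave room for large differences in both directions.

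**Figure D2:**
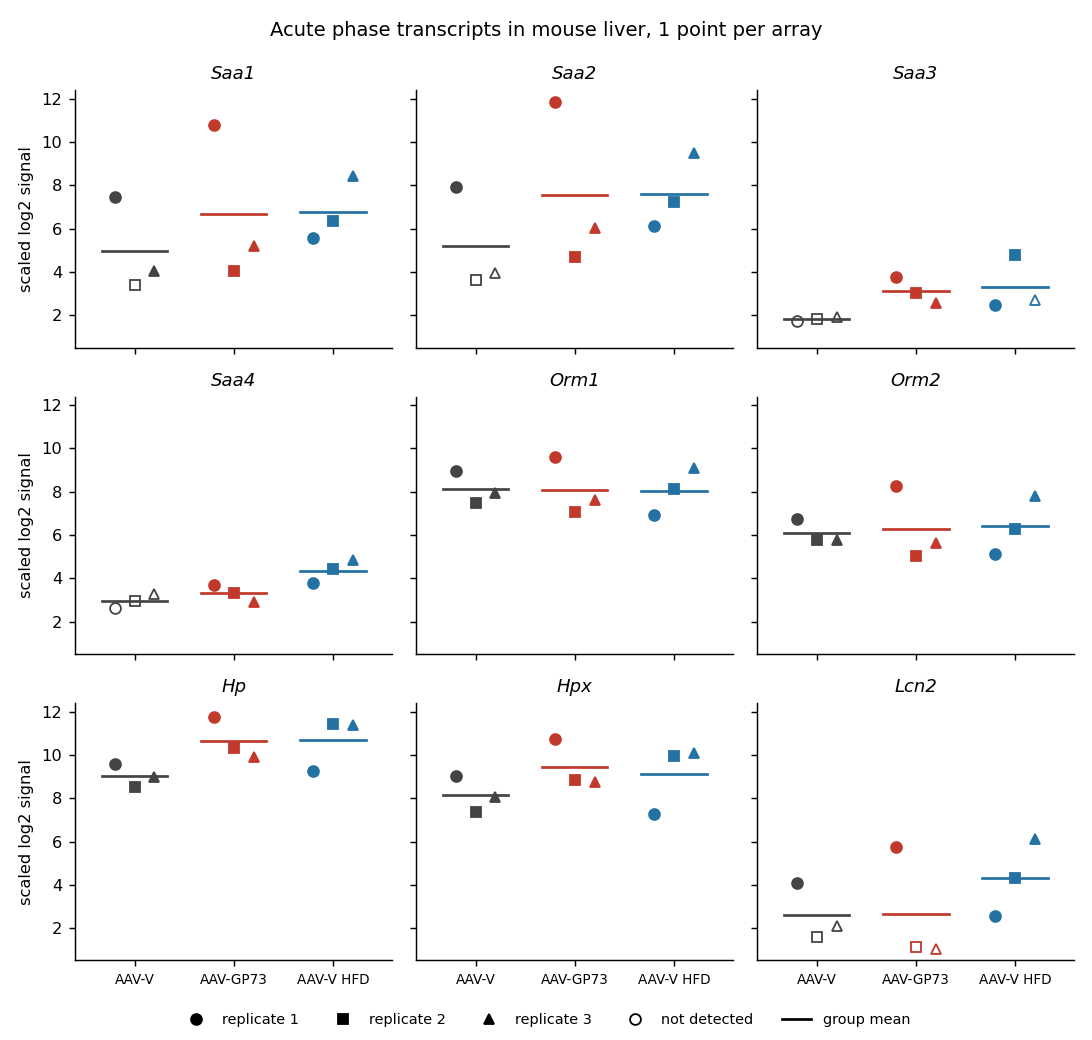
Each panel is 1 gene and each point 1 array, with the scaled log2 signal on the y axis, the 3 groups on the x axis, replicates marked by shape, and a line at the group mean. Open points were not detected. In Saa1, Saa2, Orm1, Orm2, Hpx and Lcn2 the highest points are AAV-V replicate 1, AAV-GP73 replicate 1 and AAV-V HFD replicate 3.

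Saa3 encodes a serum amyloid A protein made also outside the liver, for example in macrophages and fat. Its probe was detected on 0 of 3 AAV-V arrays, on 3 of 3 AAV-GP73 arrays and on 2 of 3 AAV-V HFD arrays. It read 1.75, 1.85 and 1.91 in AAV-V, 3.75, 3.05 and 2.58 in AAV-GP73, and 2.48, 4.80 and 2.72 in AAV-V HFD. Neither AAV-GP73 nor AAV-V HFD overlapped AAV-V, and they overlapped each other. The difference from AAV-V was called in AAV-V HFD (1.49 ± 0.53, SE, limma adjusted p = 0.0323) and not in AAV-GP73 (1.29 ± 0.53, SE, limma adjusted p = 0.0510). Since the AAV-V values are only upper limits set by background, and both other means lie below the detection floor of the AAV-V arrays, no fold can be given. The AAV-V HFD call was lost without AAV-V HFD replicate 2 (0.76, limma adjusted p = 0.118) or without any 1 of the AAV-V arrays (1.45 to 1.53), and after normexp background correction the differences were -0.70 in AAV-V HFD and -0.67 in AAV-GP73. The AAV-GP73 difference was called in 12 of 20 alternatives, among them the 75th percentile of all probes (2.28), quantile normalization (2.33), spike-in scaling (2.96) and the authors' own log2 table (2.64, limma adjusted p = 0.00233), on which Saa3 and not Hp was the 1 member called.

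Of 12 markers of Kupffer cells and macrophages, 5 were tested. By limma against AAV-V, 1 was called higher in AAV-GP73 (Clec4f) and 0 in AAV-V HFD, and 0 lower. Clec4f was detected on 0 AAV-V arrays, so it was tested only through the other groups. Against the detection floor of the AAV-V arrays it was at least 1.006-fold higher in AAV-GP73. Among all probes tested, 33.9% and 25.0% were called higher in these comparisons. The summed scaled signal of the 12 was 172.8 to 185.6 on the AAV-V arrays, 201.2 to 268.9 on the AAV-GP73 arrays and 229.3 to 283.3 on the AAV-V HFD arrays. Timd4, Cd163 and C1qa were detected on no array, and 2 markers were so on all 9. Their part in the Saa3 values was not tested.

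Saa4 encodes the constitutive serum amyloid A, which is made by the liver without a stimulus. It was detected on 0 of 3 AAV-V arrays and on every array of the other two groups. It read 2.63, 2.96 and 3.27 in AAV-V, 3.72, 3.33 and 2.91 in AAV-GP73, and 3.78, 4.45 and 4.85 in AAV-V HFD. The AAV-V HFD arrays were above every array of the other groups, while AAV-GP73 overlapped AAV-V. Saa4 was called higher in AAV-V HFD than in AAV-V, by at least 1.41-fold against the detection floor of the AAV-V arrays (fitted difference 1.40 ± 0.34, SE, limma adjusted p = 0.00586). The call held with any 1 array left out (1.16 to 1.69), but after normexp background correction the difference was -0.53. In AAV-GP73 the difference was 0.37 ± 0.34 (SE, limma adjusted p = 0.362). Between AAV-GP73 and AAV-V HFD Saa4 differed by -1.04 (95% interval -1.78 to -0.29), with a limma adjusted p of 0.146 over all probes, and so was not called.

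Orm1 and Orm2 encode plasma carriers of basic drugs and lipids. The Orm1 probe was detected on all 9 arrays and read 8.94, 7.48 and 7.96 in AAV-V, 9.61, 7.05 and 7.61 in AAV-GP73, and 6.91, 8.15 and 9.10 in AAV-V HFD. Orm2, also detected on all 9, read 6.75, 5.75 and 5.76 in AAV-V, 8.26, 5.04 and 5.61 in AAV-GP73, and 5.14, 6.27 and 7.81 in AAV-V HFD. Both probes overlapped fully between groups, and the arrays that were highest in each group were those that were highest for Saa1 and Saa2. The difference between AAV-GP73 and AAV-V was -0.03 for Orm1 (95% interval -1.51 to 1.44, limma adjusted p = 0.968) and 0.21 for Orm2 (-1.51 to 1.94, limma adjusted p = 0.824). Against AAV-V, the AAV-V HFD difference was -0.07 for Orm1 (-1.55 to 1.40) and 0.32 for Orm2 (-1.40 to 2.04). The sign of the Orm1 differences turned with the scaling: with arrays scaled on spike-in controls they were 1.64 and 1.26.

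Orm3 had 2 probes, 1 of which overlaps that of Orm1. By its brighter probe it differed from AAV-V by -1.19 ± 0.32 (SE) in AAV-GP73 and by -1.91 ± 0.32 (SE) in AAV-V HFD. Limma called both lower, and values of the other probe are not given here.

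Hp encodes haptoglobin, which binds free haemoglobin in plasma. Its probe was detected on all 9 arrays and read 9.57, 8.49 and 8.98 in AAV-V, 11.75, 10.32 and 9.88 in AAV-GP73, and 9.27, 11.43 and 11.38 in AAV-V HFD. All AAV-GP73 arrays were above all AAV-V arrays, while AAV-V HFD replicate 1 lay among the AAV-V arrays. Hp was called higher in AAV-GP73 than in AAV-V, by 3.12-fold (1.64 ± 0.60 on the log2 scale, SE, limma adjusted p = 0.0336), and higher in AAV-V HFD than in AAV-V, by 3.20-fold (1.68 ± 0.60, SE, limma adjusted p = 0.0342). It was the only member called in AAV-GP73 and the only member called in both comparisons with AAV-V. The AAV-GP73 call was lost when AAV-GP73 replicate 1 (difference 1.09, limma adjusted p = 0.152), AAV-GP73 replicate 2 (1.80), AAV-V replicate 2 (1.38) or AAV-V replicate 3 (1.62) was left out, and on the authors' own log2 table (1.56, limma adjusted p = 0.0596). The AAV-V HFD call was lost without AAV-V HFD replicate 2 (1.31, limma adjusted p = 0.129) or 3 (1.34), or without AAV-V replicate 2 (1.42) or 3 (1.66), while the difference was above 0 each time.

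Hpx encodes hemopexin, the plasma carrier of free haem. It read 9.01, 7.37 and 8.04 in AAV-V, 10.75, 8.84 and 8.75 in AAV-GP73, and 7.26, 9.93 and 10.10 in AAV-V HFD, with detection on all 9 arrays. AAV-V replicate 1 lay above the lower 2 arrays of AAV-GP73, and AAV-V HFD replicate 1 was the lowest of all 9. The differences from AAV-V were 1.31 ± 0.75 in AAV-GP73 (SE, limma adjusted p = 0.145) and 0.96 ± 0.75 in AAV-V HFD (SE, limma adjusted p = 0.295).

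Haemoglobin transcripts, which come from red cells and their precursors, moved with the AAV-GP73 group. The summed scaled signal of 7 erythroid markers on the array was 400.4 to 990.3 in AAV-V, 3422 to 17399.6 in AAV-GP73 and 653.3 to 1138 for AAV-V HFD. The highest value was that of AAV-GP73 replicate 1, which was also the highest of the 9 arrays for Hp and Hpx. Of the 7 markers, 3 were detected on all 9 arrays. Of 4 tested, 3 were called higher in AAV-GP73 against AAV-V by limma, with 0 called for AAV-V HFD. Among all probes tested, 33.9% and 25.0% were called higher in these comparisons. The part of erythroid RNA in the Hp and Hpx values was not tested.

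Lcn2 encodes lipocalin 2, which withholds iron from bacteria by binding their siderophores and is made by neutrophils as well as by hepatocytes. Its brighter probe read 4.11, 1.60 and 2.09 in AAV-V, 5.74, 1.12 and 1.06 in AAV-GP73, and 2.55, 4.32 and 6.11 in AAV-V HFD. It was detected on 1 AAV-V array, 1 AAV-GP73 array and 3 AAV-V HFD arrays. The single detected array of AAV-V and of AAV-GP73 was replicate 1, the same array that was highest for Saa1 and Saa2. The differences from AAV-V were 0.04 in AAV-GP73 (95% interval -2.56 to 2.64, limma adjusted p = 0.978) and 1.73 in AAV-V HFD (-0.87 to 4.32, limma adjusted p = 0.236). With 1 array detected in AAV-V and 1 in AAV-GP73, the 0.04 rests mostly on background values. It does not show that Lcn2 was alike in these groups. The dimmer Lcn2 probe was detected on 1 array only, AAV-GP73 replicate 1, and was not tested.

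The summed scaled signal of 12 neutrophil markers was also highest on replicate 1 of AAV-V, replicate 1 of AAV-GP73 and replicate 3 of AAV-V HFD within those groups. It was 185.2, 96.7 and 114.4 in AAV-V, 195.9, 70.9 and 75.5 in AAV-GP73, and 64.7, 71.6 and 110.5 in AAV-V HFD, replicates 1 to 3. Most of the list was undetected: 7 markers, Ly6g, Mpo, Camp, Ltf, Retnlg, Cxcr2 and Mmp8, were detected on no array. S100a9, which encodes a calcium-binding protein abundant in neutrophils, read 6.35, 2.75 and 3.27 in AAV-V, 6.72, 3.18 and 4.00 in AAV-GP73, and 3.19, 4.34 and 5.57 in AAV-V HFD. On the highest array of each group S100a9 was the brightest of the 12 markers, so the sum leans on that 1 gene. Not all neutrophil markers had the order of the sum. Elane, a neutrophil protease detected on all 9 arrays, was highest on AAV-V replicate 3, AAV-GP73 replicate 1 and AAV-V HFD replicate 1. Csf3r was highest on AAV-V replicate 2, AAV-GP73 replicate 1 and AAV-V HFD replicate 1, and AAV-V HFD replicate 3 was its lowest in that group. S100a9 and S100a8, the latter detected on 0 AAV-V arrays and 1 AAV-GP73 array, were highest on the same arrays as the sum. Of the 4 markers tested, which were S100a8, S100a9, Elane and Csf3r, 0 were called higher by limma against AAV-V in either group. In both, 1, Elane, was called lower (-1.61 ± 0.30 in AAV-GP73 and -1.26 ± 0.30 for AAV-V HFD, SE). Among all probes tested, 17.9% and 16.9% were called lower in these comparisons. The part of neutrophil RNA in the Lcn2 and serum amyloid A values was not tested.

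Crp encodes C-reactive protein, a pentraxin that binds phosphocholine on bacteria and dying cells. It had 2 probes, and both were detected on 0 of 9 arrays. Crp was therefore not tested, and no level or direction is given for it.

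The spread between arrays of 1 group set the members apart from most probes. The pooled within-group SD of the 6591 probes tested had a median of 0.413 on the log2 scale and a 95th percentile of 0.831, while the median over the 9 member probes was 1.22. Saa2 (2.78) and Saa1 (2.58) ranked 2 and 3 of all 6591, and Lcn2 (2.01) ranked 7. Among the 2666 probes detected on all 9 arrays, where no value was at background, Orm2 (SD 1.30) ranked 5, Hpx (1.22) ranked 6, Orm1 (1.09) ranked 11 and Hp (0.957) ranked 22. Saa3 had an SD of 0.813, and Saa4, with 0.430, was close to the median of all probes.

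**Figure D3:**
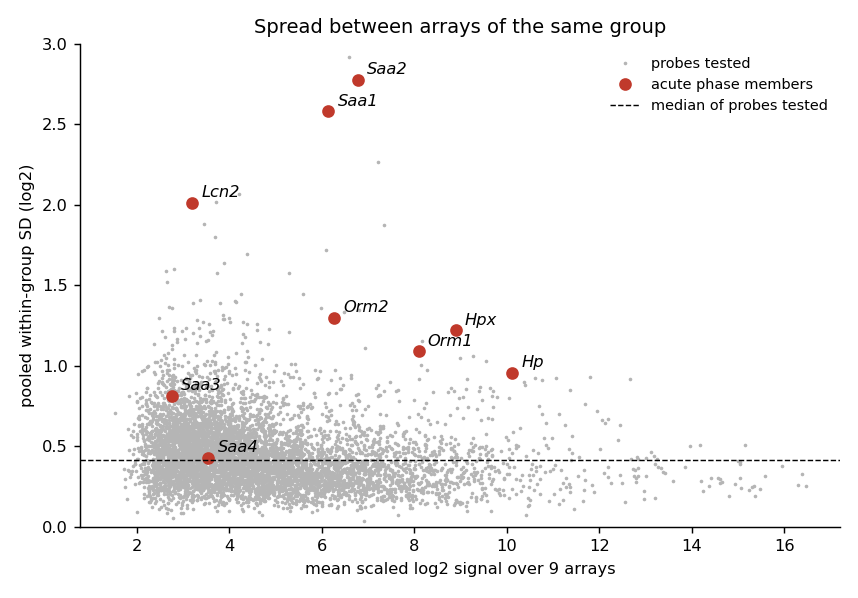
Each point is 1 probe, with its mean scaled log2 signal over 9 arrays on the x axis and its pooled within-group SD (log2) on the y axis; grey points are the 6591 probes tested, red points the 9 acute phase probes, and the dashed line the median of all. Of the 9, 8 lie above that line by a clear distance and Saa4 lies close to it.

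The members that spread widely did so together. The highest array was replicate 1 in AAV-V, replicate 1 in AAV-GP73 and replicate 3 in AAV-V HFD for 6 of the 9 member probes, Saa1, Saa2, Orm1, Orm2, Hpx and Lcn2. The same 3 arrays were highest for 3.54% of all probes tested. These 3 arrays were read from Saa1, so its own match was fixed in advance. Saa1 and Saa2 are near copies and the Orm1 probe is also listed for Orm2, so the 6 are not independent. For Saa1, Saa2, Orm1, Orm2 and Lcn2 this held under each of the 6 scalings tried. Hp had the same highest arrays in AAV-V and AAV-GP73 but AAV-V HFD replicate 2 in the third group.

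Saa1 was set against each of the 8 other member probes over the 9 arrays. The Pearson correlation with Saa2 was 0.995 (Spearman 1.0; exact permutation adjusted p = 2.2e-05 over the 8 relations). It was 0.906 with Orm2 (Spearman 0.733), 0.894 with Lcn2 (Spearman 0.817) and 0.868 with Orm1 (Spearman 0.75), with exact permutation adjusted p of 0.0026, 0.0026 and 0.00416 for the Pearson and 0.0415, 0.0369 and 0.0408 for the Spearman coefficients. With Hpx it was 0.813 and with Hp 0.759 (Spearman 0.8 and 0.767; exact permutation adjusted p = 0.0116 and 0.0230 for Pearson, 0.0369 and 0.0408 for Spearman). Saa3 (0.397, Spearman 0.417) and Saa4 (0.415, Spearman 0.417) did not pass, each with an exact permutation adjusted p of 0.292 for Pearson and 0.270 for Spearman.

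These relations were found within groups as well. After the group means were removed, the correlation with Saa1 was 0.999 for Saa2, 0.963 for Lcn2, 0.945 for Orm1, 0.934 for Orm2, 0.790 for Hpx and 0.760 for Hp. Exact permutation within groups, which allows no raw p below 0.00463, gave adjusted p of 0.0123 for Saa2, Orm1 and Orm2, 0.0148 for Lcn2 and Hpx, and 0.0370 for Hp. Over the 6 arrays of slide 1 alone, r with Saa1 was 0.995 for Saa2, 0.948 for Orm2, 0.932 for Lcn2, 0.931 for Orm1, 0.920 for Hpx and 0.802 for Hp; slide 2 held only 3 arrays. With the 2 arrays farthest from the Saa1 median left out, AAV-GP73 replicate 1 and AAV-V HFD replicate 3, r fell to 0.664 for Orm2, 0.647 for Orm1, 0.543 for Hpx and 0.457 for Hp but was 0.983 for Saa2 and 0.808 for Lcn2. The relations of Saa1 with Orm1, Orm2, Hp and Hpx were thus weaker without those 2 arrays. Leaving out the arrays most extreme in Saa1 narrows its range, which can lower r by itself. Whether these relations hold without the 2 arrays was not tested. Saa1 was below detection on 1 array and Lcn2 on 4, and all values of an array share its library and its scaling.

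**Figure D4:**
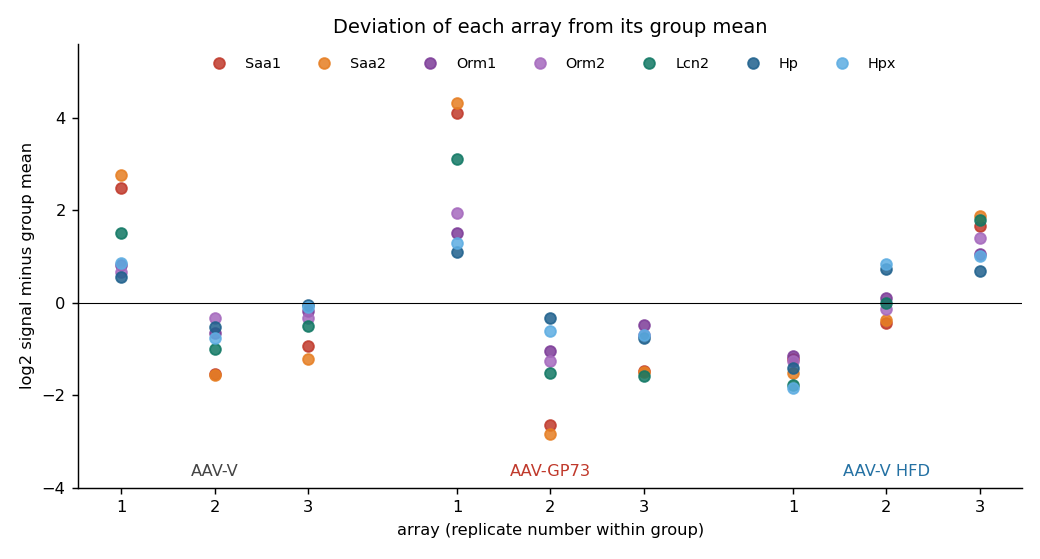
The y axis is the log2 signal of each array minus the mean of its group, for 7 acute phase genes, and the x axis is the array, by replicate number within the 3 groups. All 7 lie above 0 on AAV-V replicate 1, AAV-GP73 replicate 1 and AAV-V HFD replicate 3, and all 7 below 0 on AAV-V HFD replicate 1.

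Between AAV-GP73 and AAV-V HFD, 0 of the 9 members were called by limma, 1 (Saa4) had an unadjusted p under 0.05, and 2.67% of all probes were called. Arrays did not overlap for Saa4 only, lower in AAV-GP73, beside 8.31% of all probes lower with no overlap. For Hp the difference was -0.04 (95% interval -1.35 to 1.27), for Orm1 0.04 (-1.43 to 1.51), and for Saa1 -0.09 (-3.40 to 3.21). These intervals are wide, most of all for Saa1 and Saa2, and do not show that the groups were alike.

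**Figure D5:**
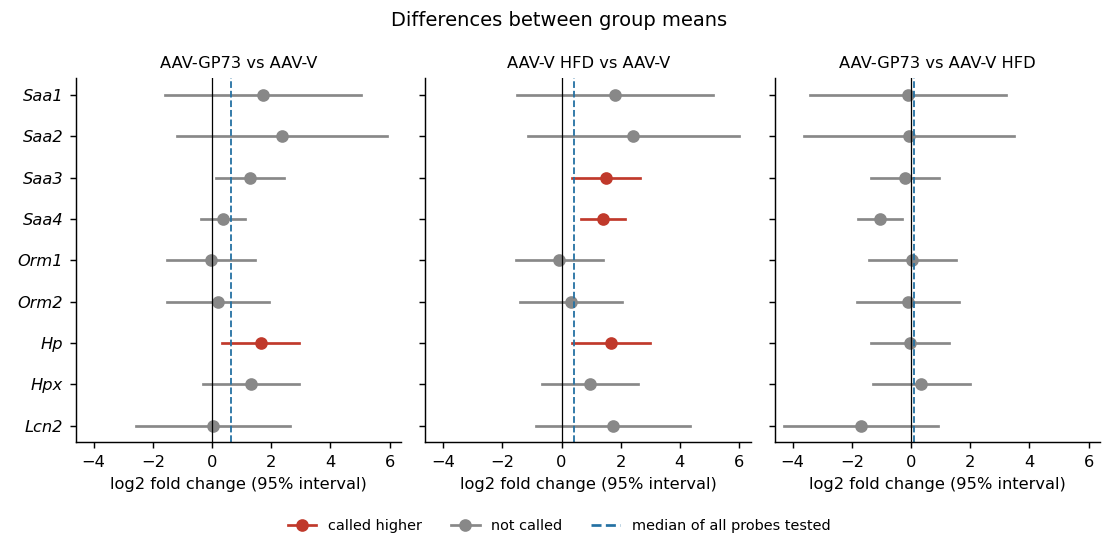
Points are log2 fold changes of 9 acute phase genes with 95% intervals (x axis) in 3 comparisons, red where called higher; the dashed line is the median of all probes tested. Only Hp in AAV-GP73 against AAV-V and Hp, Saa3 and Saa4 in AAV-V HFD against AAV-V are called, and the intervals of Saa1, Saa2 and Lcn2 are the widest.

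Other plasma proteins raised in the acute phase were read from a list of 30 genes, of which 22 were tested. Of these, 8 rose and 1 fell in AAV-GP73 against AAV-V, and 3 rose and 2 fell in AAV-V HFD, by the same calls. Among all probes, 33.9% and 25.0% were called higher and 17.9% and 16.9% lower. Of the 8, 1 was detected on no AAV-V array. The medians were 1.09 and 0.38, beside 0.64 and 0.41 over all probes. C3, the central complement component, was 1.69 ± 0.57 higher in AAV-GP73 and Mbl2, a mannose-binding lectin, 1.55 ± 0.40 higher (SE), and the 1 that was lower was Orm3. Of 13 proteins that fall in the acute phase, all tested, 1 was called higher in AAV-GP73 (Fetub, a fetuin, 1.41 ± 0.55, SE) and 0 in AAV-V HFD by limma. Albumin, the most abundant plasma protein, differed from AAV-V by -0.16 ± 0.30 in AAV-GP73 and -0.76 ± 0.30 for AAV-V HFD (SE), neither called.

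The upstream pathway was read less well. Of 30 genes of interleukin-6, interleukin-1 and TNF signalling, 11 were tested. Against AAV-V, 3 rose and 3 fell in AAV-GP73, while 1 rose and 3 fell in AAV-V HFD. Among all probes tested, 33.9% and 25.0% were called higher and 17.9% and 16.9% lower. Of the genes that rose, 2 and 1 were detected on no AAV-V array. These were tested only through the other groups, which bears on the direction of the counts. Il6 and Il1b were detected on no array. Stat3, which carries the interleukin-6 signal to the nucleus, was undetected on the AAV-V arrays and called higher, by at least 2.21-fold in AAV-GP73 and at least 1.79-fold in AAV-V HFD. The others called higher in AAV-GP73 were Jak1, a kinase that acts before Stat3 (at least 1.10-fold), and Rela, an NF-kB subunit (1.55 ± 0.36, SE, detected on 1 AAV-V array). Il6ra, the interleukin-6 receptor, differed from AAV-V by -1.73 ± 0.45 in AAV-GP73 and -1.19 ± 0.45 for AAV-V HFD, and Irak2, a kinase of interleukin-1 receptor signalling, by -1.20 ± 0.26 and -1.07 ± 0.26 (SE), all called lower. The remaining gene called lower in both was Relb, another NF-kB subunit (-1.34 ± 0.32, SE, in AAV-V HFD). Relb was detected on 2 AAV-V arrays and on 0 AAV-GP73 arrays. Its AAV-V mean includes an undetected array, so no least fold is given for AAV-GP73. Of 14 transcription factors that act on acute phase promoters, 10 were tested. Of these, 7 were called higher in AAV-GP73 and 5 for AAV-V HFD, beside 33.9% and 25.0% of all probes, and 0 lower. Of those called higher, 5 and 3 were detected on no AAV-V array, so that they were tested only through the group where they were higher, which bears on the direction of these counts. Hnf4a, a nuclear receptor that maintains hepatocyte gene expression, was 2.46 ± 0.33 and 1.40 ± 0.33 higher (SE). Of 16 receptors and partners in haem or iron handling, 8 were tested. In each of these comparisons 3 were called higher, all of them undetected on the AAV-V arrays. The shares of all probes called higher were again 33.9% and 25.0%.

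For the members detected on all 9 arrays, the genes with the most similar pattern over those arrays were sought among probes detected on all 9. For Orm1 they were Orm2 (Pearson r 0.966), Trf (0.889) and Ang (0.880), and for Orm2 they were Orm1, Ang (0.926) and Trf (0.886). For Hp they were Fetub (0.982), C4b (0.967) and Cpb2 (0.961), and for Hpx Cp (0.975), Pzp (0.967) and Fetub (0.962). The 9 arrays share scaling and group, so these coefficients describe the pattern only.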

How the data were processed

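Liver RNA of 9 mouse samples was measured on 1-colour Agilent arrays, and the deposited scanner files give the intensity of 62976 spots. The submitters' processing notes name Agilent Feature Extraction 10.7 and limma, while the file headers give version 12.0.3.1. The authors also deposited a table of log2 values, used as an alternative; its column medians were 0.799 to 0.801, and its normalization is not given in the sources used here.

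Log2 of the processed signal was taken, spots with outlier marks were dropped, and spots of a probe name were averaged. Each array was shifted so that its 75th percentile over 2666 probes, those that all 9 arrays detected, was equal; detected means marked by the scanner software as well above background. Probes detected on every array of 1 group or more were fitted over 3 groups (limma 3.58.1, R 4.3.3), adjusted by Benjamini-Hochberg over 6591 probes, and called where the adjusted p was under 0.05 and the change 2-fold or more. Groups came from the sample labels. The members and lists were chosen with earlier results of these data known. All member probes are reported. Of each list reported, the counts are given, with values for at most 4 genes. These are the 2 largest rises and 2 largest falls called in AAV-GP73 against AAV-V, among genes detected on all arrays of both groups. Values of S100a9, Stat3, Jak1, Rela, Relb and Albumin (Alb), and detection of Il6 and Il1b, were added after their values were seen. So were the highest arrays of S100a8 and Csf3r. Where a group had no detected array, its mean was set to the detection floor of each array and the fold written as "at least". Correlations over arrays were tested by exact permutation (numpy 2.4.6). The fit was tested on simulated data with normal noise of each probe's own within-group SD. In AAV-GP73 against AAV-V, 45% of probes changed by 1.5 and 79% of those changed by 2 on the log2 scale were called. In AAV-V HFD against AAV-V these shares were 61% and 73%. They do not describe the members, whose median SD was 1.22 against 0.413 over all probes tested. Probe coordinates are mm9 as deposited, and promoters are from RefSeq. The number of arrays limits the precision.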

Additional observations from a re-analysis of the deposited data

How the results depend on the processing

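Over the alternatives tried, Hp was each time above AAV-V, by 1.09 to 3.31 in AAV-GP73 and by 1.31 to 3.02 for AAV-V HFD, and Hpx likewise (0.66 to 2.98 and 0.45 to 2.29). No member was called between AAV-GP73 and AAV-V HFD under any of them. With 3 arrays a group, a difference the size of that of Saa2 could not be told from the spread, and Crp, with signal at background, has no value. The cause of the changes below was not tested.

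Members called in AAV-GP73 against AAV-V (1 in the report) were 4 with the 75th percentile of all probes, 8 with spike-in scaling, 2 with quantile normalization, 2 with normexp, 4 without a filter on detection (2 of them lower, the Crp probes at background) and 2 with only the 2 groups in the fit. In AAV-V HFD against AAV-V (3 in the report) they were 5 with the 75th percentile of all probes, 6 with spike-in scaling, 1 with normexp, 1 among probes detected on all 9 arrays, 1 by the methods' t-test and 0 by that test after Benjamini-Hochberg adjustment, which gave 1 in AAV-GP73. Leaving out 1 array gave 0 to 2 members in AAV-GP73 and 1 to 4 for AAV-V HFD against AAV-V. All probes called in AAV-GP73 against AAV-V (3416) were 5209 with spike-in scaling, 893 with normexp, 47084 without a filter and 1250 among probes detected on all 9 arrays, and 3119 to 3612 with 1 array left out. In AAV-V HFD against AAV-V (2768) they were 4521, 962, 45127 and 1087 in the same order, 1694 by the methods' t-test after adjustment, and 2413 to 3075 with 1 array left out. Between AAV-GP73 and AAV-V HFD (176) they were 48 with quantile normalization, 367 with spike-in scaling, 49 with normexp, 27 on the authors' log2 table, 77 without a filter, 71 among probes detected on all 9 arrays, 389 by the methods' t-test and 13 by it after adjustment, and 53 (without AAV-GP73 replicate 3) to 191 with 1 array left out.

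Signs turned as follows. With the 75th percentile of all probes Orm1 was 0.96 in AAV-GP73 and 0.88 for AAV-V HFD against AAV-V, and with spike-in scaling 1.64 and 1.26. With quantile normalization Orm1 was 0.025 in AAV-V HFD against AAV-V and -0.052 between AAV-GP73 and AAV-V HFD. With spike-in scaling the differences between AAV-GP73 and AAV-V HFD were 0.24 for Saa1, 0.26 for Saa2, 0.13 for Saa3, 0.23 for Orm2 and 0.30 for Hp. With normexp, whose offset is larger than the signal of the dim probes, AAV-GP73 against AAV-V gave -0.67 for Saa3, -0.71 for Saa4, 0.041 for Orm1, -0.11 for Orm2 and -0.69 for Lcn2. With normexp AAV-V HFD against AAV-V gave -0.70, -0.53, 0.039, -0.072 and -0.43 for the same genes, and AAV-GP73 against AAV-V HFD gave 0.29 for Saa1, 0.23 for Saa2 and 0.030 for Saa3. On the authors' log2 table Orm2 was -0.15 in AAV-GP73 against AAV-V.

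With 1 array left out, the differences of AAV-GP73 from AAV-V ranged from -0.34 to 3.04 for Saa1, -0.79 to 0.49 for Orm1, -0.76 to 0.85 for Orm2 and -1.51 to 0.83 for Lcn2. The lowest of each came without AAV-GP73 replicate 1. Those of AAV-V HFD from AAV-V ranged from -0.60 to 0.50 for Orm1 and -0.38 to 0.95 for Orm2, lowest without AAV-V HFD replicate 3. Those between AAV-GP73 and AAV-V HFD ranged from -2.15 to 1.23 for Saa1, -2.24 to 1.34 for Saa2, -0.63 to 0.53 for Saa3, -0.72 to 0.57 for Orm1, -1.08 to 0.60 for Orm2, -0.75 to 0.34 for Hp and -0.57 to 0.85 for Hpx.

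Equal replicate numbers did not pair the arrays: deviations of equal-numbered arrays correlated between -0.11 and 0.17, over 0.1 in 2 of 9 pairs, and 0 arrays correlated best with their own number. With the replicate block, Hp had a limma adjusted p of 0.0528 in AAV-GP73 and 0.0530 for AAV-V HFD and Saa3 0.0499 in AAV-GP73, so that members called were 1 and 2, and all probes called were 3413, 2780 and 124 in the 3 comparisons.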

Other observations

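The metallothioneins Mt1 and Mt2, which bind zinc and are also raised in the acute phase, had the widest spread beside serum amyloid A. They were chosen after their values were seen. The Mt2 probe had the largest pooled within-group SD of the 6591 probes tested (2.92), and Mt1 ranked 4 (2.27). In AAV-V, Mt2 was detected on 1 array and Mt1 on 2, so these spreads include values at background. Mt2 read 9.19, 1.58 and 3.20 in AAV-V, 9.27, 6.73 and 7.41 in AAV-GP73, and 4.81, 6.70 and 10.29 in AAV-V HFD. The highest array of each group was the one that was highest for Saa1. Fgl1, a secreted protein of the fibrinogen family, ranked 11 (1.72), and S100a9 ranked 12 (1.70). Igfbp1, a plasma carrier of insulin-like growth factors, ranked 6 (2.02).

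Over all probes tested, the genes closest in pattern to Saa1 over the 9 arrays were Saa2 (Pearson r 0.995), S100a9 (0.930) and Orm2 (0.906), and those closest to Lcn2 were Orm2 (0.911), Saa1 (0.894) and Saa2 (0.883).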
